A study of Rattus norvegicus with 2 samples.

Results

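The miR-126a hairpin is described here by the reads of its 2 arms, listed as mmu-miR-126a-5p and mmu-miR-126a-3p, in exosomes released by cultured cardiomyocytes. Every row of the count table named miR-126a or miR-126b, on any arm, was taken, and this gave 2 of the 635 listed miRNAs. There was no row named miR-126b, and the table lists only miRNAs with at least 1 read over both libraries. Small RNA was sequenced from exosomes collected from the medium of primary cardiomyocytes of neonatal Wistar rats aged 1 to 2 days. Normal cardiomyocyte-derived exosomes (NC-Exo) came from cells cultured without angiotensin II (Ang II), and hypertrophic cardiomyocyte-derived exosomes (HC-Exo) from cells made hypertrophic with Ang II at 1 μmol/L over 48 h. Both cultures were starved of serum beforehand, both were enriched for cardiomyocytes by differential adhesion, and both were plated with bromodeoxyuridine. Each condition had 1 library. The differences therefore have no replicate check, and the tests compare the libraries rather than the conditions.

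MicroRNAs are cut from hairpin precursors in which the 5p and 3p arms pair with each other. One arm of the duplex is usually kept by an Argonaute protein and guides it to messenger RNAs that match its seed, while the other arm is mostly degraded. In mammals, miR-126 lies within an intron of Egfl7, a gene of endothelial cells, and is known as a miRNA of the endothelium. Its 3p arm is known for lowering Spred1 and Pik3r2, which restrain signaling by vascular endothelial growth factor, and the adhesion molecule Vcam1, and its 5p arm is known for lowering Dlk1. The label of the samples gives the source as cardiomyocytes, so the level of an endothelial miRNA in these exosomes is reported as measured.

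The mature sequences are shown because the arms carry different seeds and were read at very different levels. They were taken by mature name from the RefSeq table of the rat build GRCr8, read 5′ to 3′, with bases 2 to 8 (the seed) in capitals. Both arms were matched. The antisense miR-126b is added to show which strand it comes from.
rno-miR-126a-5p: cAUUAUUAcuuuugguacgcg
rno-miR-126a-3p: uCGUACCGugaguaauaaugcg
rno-miR-126b: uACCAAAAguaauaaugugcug
In GRCr8, miR-126a-5p lies at chr3:29813182-29813202 and miR-126a-3p at chr3:29813219-29813240, both on the plus strand, with 16 bases between them. Both lie within the bounds of Egfl7, which is on the same strand. The mature miR-126b lies at chr3:29813177-29813198 on the minus strand and is the reverse complement of miR-126a-5p over 17 bases. The RefSeq gene entry with the symbol Mir126b carries both miR-126a arms, and its synonyms include Mir126a. No other of the 724 mature rat sequences in that table had the seed of either arm, and the arms do not share a seed with each other. The 5p arm is 21 bases long with 8 G or C and begins with C, while the 3p arm is 22 bases long with 10 G or C and begins with U. In the duplex predicted by RNAduplex, the arms formed 18 base pairs.

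The NC-Exo library held 102608 miRNA reads and the HC-Exo library 133155, summed over all rows. Some rows, such as miR-486a-5p and miR-486b-5p, carry identical counts (654 and 875), so these totals may count some reads more than once. Levels are given as reads per 1000000 miRNA reads (RPM), of which 1 read was worth 9.75 in NC-Exo, and 7.51 in the deeper HC-Exo library. All 635 names carried the mouse prefix, although the cells were from rats. The muscle miRNA miR-1a-3p was the most abundant in both libraries. No other row carried the same pair of counts as either arm of miR-126a.

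The 5p arm was one of the main miRNAs of both libraries. It had 8875 reads in NC-Exo, which was 8.65% of the library (95% Clopper-Pearson interval 8.48 to 8.82%), and 8185 reads in HC-Exo, which was 6.15% (6.02 to 6.28%). On the scale of RPM these levels were 86494 and 61470. It held rank 2 of 635 in both libraries, below miR-1a-3p and above let-7c-5p. In NC-Exo let-7c-5p had 6350 reads, well below miR-126a-5p. In HC-Exo it had 7647 reads, and the gap to miR-126a-5p was narrower but still beyond counting error (exact binomial test of equal reads, adjusted p = 3.94e-05 over 8 comparisons of neighbouring ranks). These intervals hold the counting error of reads alone. PCR copies are no independent molecules, so the intervals may be too narrow for molecules.

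The 3p arm was read far less than the 5p arm. It had 474 reads in NC-Exo, or 0.462% of the library (0.421 to 0.505%), and 712 reads in HC-Exo, or 0.535% (0.496 to 0.575%). These were levels of 4620 and 5347 RPM, at rank 37 in both libraries. Its order among its neighbours was not resolved. In NC-Exo it stood between miR-378b with 530 reads and miR-351-5p with 420, and in HC-Exo between miR-19a-3p with 734 reads and miR-351-5p with 707. None of these 4 gaps passed the exact binomial test, with adjusted p-values from 0.110 to 0.915.

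**Figure D1:**
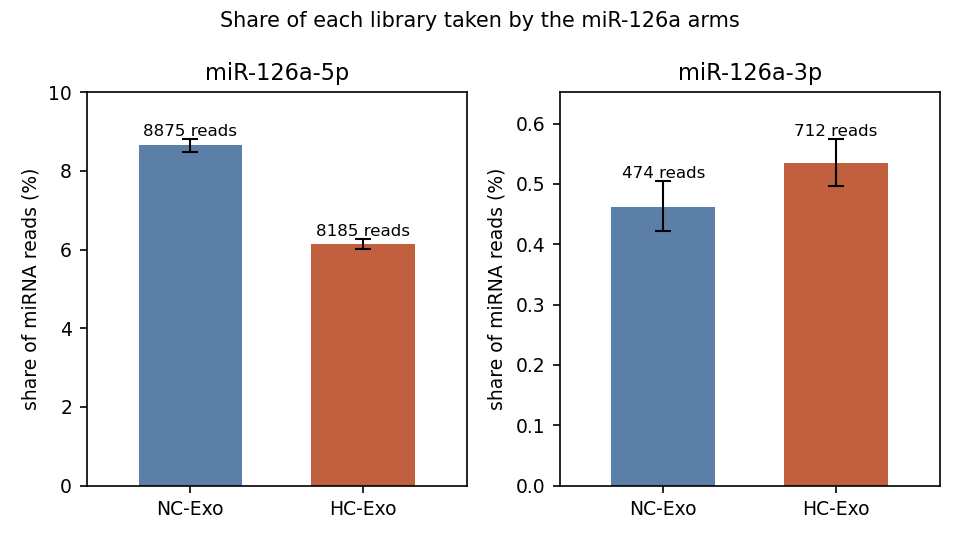
Share of all miRNA reads (percent, linear axis from 0, with a separate scale for each arm) for miR-126a-5p on the left and miR-126a-3p on the right in the 1 NC-Exo and the 1 HC-Exo library, with 95% Clopper-Pearson intervals for counting error. The 5p arm is lower in HC-Exo (6.15% against 8.65%), while the 3p arm is slightly higher (0.535% against 0.462%) with intervals that overlap.

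The study asked how exosomes of hypertrophic cardiomyocytes act on macrophages, and this comparison addresses which of their miRNAs differ from those of normal cells. A two-sided exact binomial test set the HC-Exo reads of a miRNA against its NC-Exo reads, given the library totals. It was run for the 340 miRNAs whose reads summed to 10 or more, and p-values were adjusted over all 340 by the Benjamini-Hochberg method. The share of miR-126a-5p was lower in HC-Exo. Its HC-Exo over NC-Exo ratio was 0.711 (95% interval 0.690 to 0.732), or -0.49 on the log2 scale (-0.54 to -0.45), with an adjusted p of 1.81e-107 by the exact binomial test. At its NC-Exo share, the HC-Exo library would have held 11517 reads of this arm, against the 8185 counted. The ratio of miR-126a-3p pointed the other way, at 1.16 (1.03 to 1.30), or 0.21 on the log2 scale (0.04 to 0.38), and did not pass the threshold after adjustment (adjusted p = 0.0572 by the exact binomial test). It passed, with an adjusted p of 0.0386, where only miRNAs with 50 or more summed reads were tested. The summed arms had 9349 reads, or 9.11%, in NC-Exo. In HC-Exo they had 8897, or 6.68%, and the log2 ratio was -0.45 (-0.49 to -0.41). Only shares were measured, so a lower share need not be a lower amount. In these bulk exosome samples, a different mix of vesicles and a different content per vesicle cannot be told apart.

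Such p-values are common at this depth. Of the 340 tested miRNAs, 22.4% had an adjusted p-value under 0.05, and 8.53% had one with a lower share in HC-Exo. Of the 41 abundant miRNAs, those whose reads summed to 1000 or more, 65.9% passed that limit, and 29.3% passed it with a lower share in HC-Exo. The test allows for counting error only. When a biological coefficient of variation of 0.1 between libraries was assumed, edgeR's exact test gave miR-126a-5p an adjusted p of 0.226. Neither arm reached a log2 ratio of 1 in size, as 15.6% of the 340 miRNAs did and 0 of the 41. Both criteria together were met by 4.71% of the 340 and by 0 of the 2 arms.

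By size, the ratio of the 5p arm was at the low end of the abundant miRNAs, and that of the 3p arm was well inside their range. The log2 ratios of the 41 had a median of 0.04, with quartiles of -0.12 and 0.22 and an SD of 0.26, and ran from -0.49 to 0.50. The lowest was that of miR-214-3p, a mesenchymal miRNA with 1368 NC-Exo and 1260 HC-Exo reads, and miR-126a-5p was next to it at -0.49. Over these 2 libraries, the other miRNAs nearest in ratio to the 5p arm were miR-574-3p with a log2 ratio of -0.41 and miR-378b with -0.36. The miRNAs nearest to the 3p arm were miR-335-5p with 0.21, miR-125b-5p with 0.22 and miR-24-3p with 0.20. Each miRNA has 1 ratio from these libraries, so this likeness is a description.

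**Figure D2:**
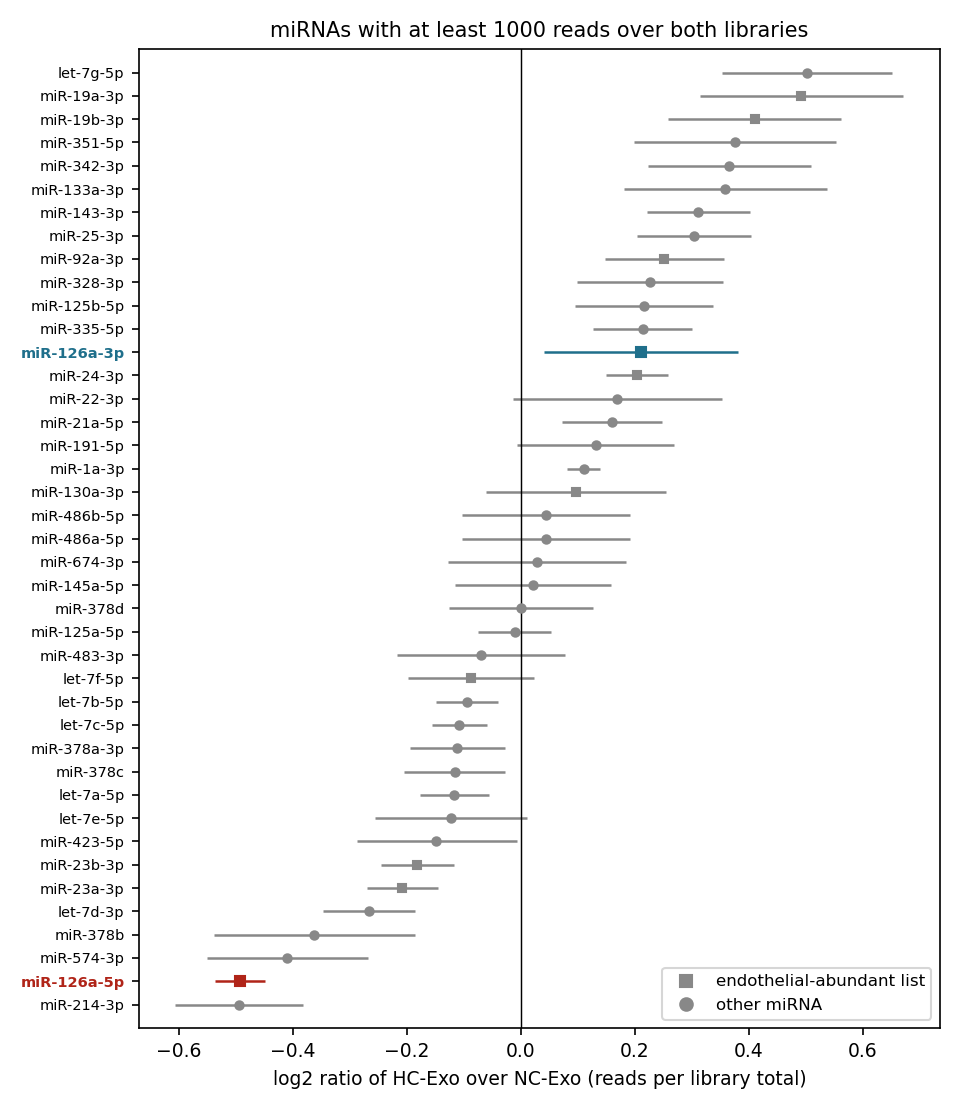
Log2 of the HC-Exo share over the NC-Exo share for the 41 miRNAs whose reads summed to 1000 or more, with 95% exact intervals for counting error, ordered from lowest to highest, with squares for the endothelial-abundant list. miR-126a-5p (red) is next to the lowest at -0.49 with a narrow interval, and miR-126a-3p (blue-green) is at 0.21.

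Because miR-126a-5p was so abundant, a modest ratio moved many reads. The difference of its share, HC-Exo minus NC-Exo, was -2.50 percentage points, the largest in size of the 635 rows. The next were miR-1a-3p, which was 1.28 points higher in HC-Exo, and miR-24-3p, which was 0.660 points higher. The 285 rows with a lower share in HC-Exo lost 7.81 points together, and miR-126a-5p alone made up 32.0% of that. The difference of the 3p arm was 0.0728 points, at place 39 of the 635. Shares within a library add up to the whole, so a lower share of one miRNA raises the others. With the miR-126a rows left out of the totals, every log2 ratio was lower by 0.04, and that of the 3p arm was 0.17.

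**Figure D3:**
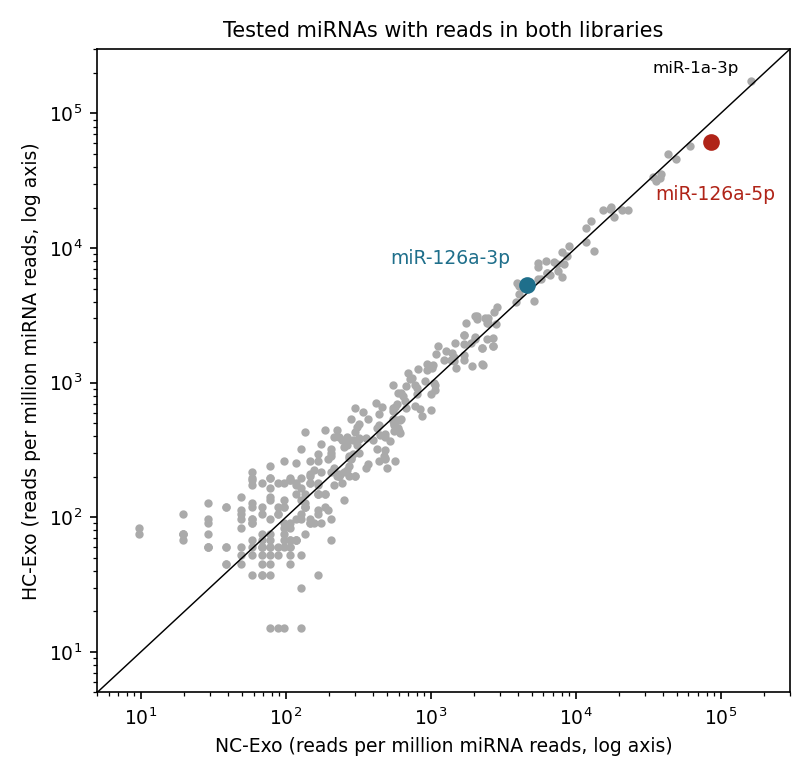
Level of each tested miRNA in NC-Exo (x axis) and HC-Exo (y axis), in RPM on log axes, for tested miRNAs with reads in both libraries, with the line of equal levels. miR-126a-5p lies below the line at 86494 and 61470, and miR-126a-3p lies slightly above it at 4620 and 5347.

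The arms of 1 hairpin come from the same precursor and were counted in the same library, so their balance does not depend on the scaling of the libraries. In NC-Exo the 5p arm made up 94.9% of the 9349 reads of the hairpin (94.5 to 95.4%), or 18.7 reads of 5p for each read of 3p. In HC-Exo it made up 92% of 8897 reads (91.4 to 92.6%), or 11.5 reads of 5p for each read of 3p. The 5p arm was therefore the main arm by reads in both libraries, while the ratio of the arms in molecules was not measured. The share of the 3p arm went from 5.07% in NC-Exo to 8.0% in HC-Exo. The odds of 5p against 3p in HC-Exo were 0.614 of those in NC-Exo (95% exact interval 0.543 to 0.693), a log2 odds ratio of -0.70 (-0.88 to -0.53, Fisher's exact test, adjusted p = 6.67e-14 over 64 hairpins). This interval too holds counting error alone. When a coefficient of variation of 0.2 was assumed for each arm in each library, it widened to -1.85 to 0.44, and the difference did not pass with a coefficient of 0.1 either.

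The same test was run for the 64 hairpins whose arms were both listed under 1 stem name with 10 or more reads each. Of the 20 hairpins with at least 1000 reads over both arms and libraries, 15% had an adjusted p-value under 0.05. Of all 64 it was 6.25%, and miR-126a was one of these 4. It also had the most reads of the 64, with 18246 over both arms and libraries, and the smallest p-value. The other 3 were miR-423, miR-351 and miR-28a. The share of the 5p arm of miR-423 went from 91.5% in NC-Exo to 85.2% in HC-Exo, and that of miR-351 went the other way, from 87.0% to 92.7%. For miR-28a, whose main arm is 3p, the share of 5p went from 16.4% to 8.43%.

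Among the 20 hairpins with at least 1000 reads, the shift of miR-126a was a moderate one. Its difference of -2.93 percentage points was at place 4 in size, after miR-423, miR-351 and miR-145a, and its log2 odds ratio was at place 10. Of these 20, 9 had a lower share of 5p in HC-Exo and 11 a higher one, so there was no common direction among them. The names miR-486a and miR-486b among the 20 carry identical counts. In arm balance itself, the nearest of the 20 to miR-126a was miR-145a, a smooth muscle miRNA, with 95.6% of 5p in NC-Exo and 92.6% in HC-Exo, though its difference did not pass (adjusted p = 0.0591 by Fisher's exact test).

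**Figure D4:**
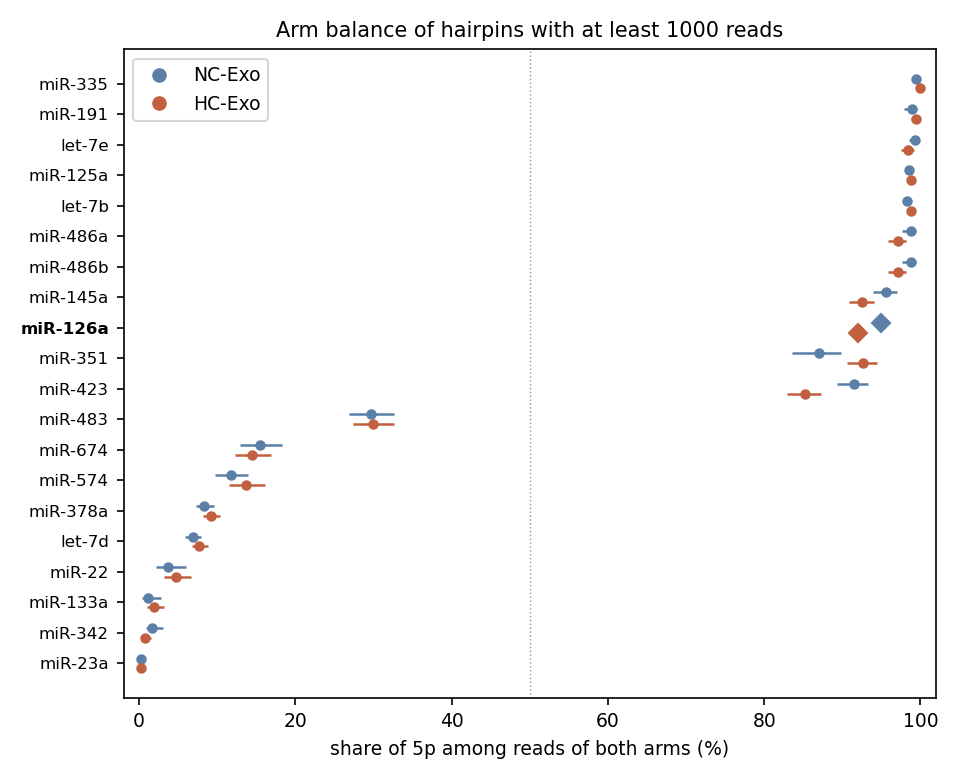
Share of the 5p arm among the reads of both arms (percent) in NC-Exo and HC-Exo for the 20 hairpins with at least 1000 reads, with 95% Clopper-Pearson intervals for counting error, ordered by the share over both libraries. miR-126a (diamonds) goes from 94.9% in NC-Exo to 92% in HC-Exo. Larger differences are seen for miR-423, miR-351 and miR-145a.

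The minor arm of miR-126a was not unusually rare. It held 6.50% of the hairpin's reads over both libraries, at place 8 from the highest of the 20, whose minor arms ran from 0.239% to 29.8% with a median of 3.25%. The 5p arm was the main arm in 11 of the 20 and in 26 of the 64. Of the 64 hairpins, 39 had both arms in the RefSeq table under the same names. The arm with more reads began with U in 15 of these and with C in 12. In 14 only the arm with more reads began with U, and in 6, miR-126a among them, only the arm with fewer reads did. These are descriptions of sequences and reads, with no test.

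Of the other miRNAs that are abundant in endothelial cells, more passed with a higher than with a lower share in HC-Exo. A list of 24 such miRNAs was used, and most of them are also expressed in other cells of the heart. Without the miR-126a rows and the 2 unlisted miR-126b arms, 20 were tested, of which 7 passed the adjusted threshold with a higher share in HC-Exo (13.8% of all tested miRNAs did) and 2 with a lower share (8.53%). Their median log2 ratio was 0.17, beside 0.10 over all 340. Well-read miRNAs pass this test more often: of the 41 abundant ones, 65.9% passed in either direction and 29.3% with a lower share. The 41 include some of the list, while other members had fewer reads, such as miR-27a-3p with 622 over both libraries. These counts were not set against miRNAs of like depth, so whether they mark a trait of the list was not tested. The 2 with a lower share were miR-23a-3p, with 3933 and 4418 reads and a log2 ratio of -0.21 (exact binomial test, adjusted p = 2.46e-09), and miR-23b-3p with -0.18. Their neighbours in the genome went the other way, with log2 ratios of 0.62 for miR-27a-3p, 0.59 for miR-27b-3p and 0.20 for miR-24-3p, all past the threshold. Of the miR-17-92 cluster, known for regulating vessel growth, miR-17-5p, miR-19a-3p, miR-19b-3p and miR-92a-3p passed with a higher share in HC-Exo, with log2 ratios from 0.25 to 0.53. The other members on the list did not pass, miR-20a-5p with 25 and 50 reads and miR-18a-5p with 9 and 7. The pair miR-221-3p and miR-222-3p, which restrain the growth of endothelial cells, had 50 and 80 reads in NC-Exo and 53 and 127 in HC-Exo, and neither passed.

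The markers of other cells were read in the same libraries. The 7 striated muscle miRNAs made up 16.9% of NC-Exo and 18.4% of HC-Exo, nearly all of it miR-1a-3p with 16614 and 23271 reads, and 5 of the 7 passed with a higher share in HC-Exo and 0 with a lower one, beside 13.8% and 8.53% of all tested miRNAs. The same background holds for the next lists. Of the 41 abundant miRNAs, 65.9% passed in either direction, and miR-1a-3p, miR-133a-3p and miR-143-3p of these lists are among them. Whether any list passes more often than miRNAs of like depth was not tested. In NC-Exo there were 1.87 reads of miR-1a-3p for each read of miR-126a-5p, and in HC-Exo 2.84. The 9 fibroblast and mesenchymal miRNAs made up 5.75% and 6.11%, and of 8 tested, 6 passed with a higher share in HC-Exo and 1, miR-214-3p, with a lower one. Among the 6, miR-199a-3p and miR-199b-3p carry identical counts. The median log2 ratio of the 8 was 0.36. The blood list made up 0.793% and 0.858%, most of it miR-486a-5p with 654 and 875 reads (0.637% and 0.657%). Its sum therefore mostly follows this 1 miRNA, and from which cells those reads came was not tested. The list also held miR-150-5p at 83 and 110 reads (0.0809% and 0.0826%), miR-451a of red cells at 17 and 35, and miR-223-3p of myeloid cells at 43 and 94. There was no row for miR-144-3p. Of its 5 tested miRNAs, miR-223-3p passed with a higher share in HC-Exo, and the median log2 ratio was 0.56. The 5p arm of miR-126a thus had more reads in both libraries than any fibroblast or blood miRNA on these lists. The 3p arm, with 474 and 712 reads, was below several of them, among them miR-21a-5p with 1784 and 2588 and miR-486a-5p. Summed over each list and divided by library totals, the log2 ratios were 0.13 for muscle, 0.09 for mesenchymal, 0.11 for blood and 0.04 for the endothelial-abundant list without miR-126a. With upper-quartile factors, a scaling added for these sums after the data were seen, they were 0.00, -0.04, -0.01 and -0.08, so the direction of all but the muscle list turned with the scaling. The part of these other miRNAs in the ratio of miR-126a-5p was not tested.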

How the data were processed

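Exosomes were isolated from the cardiomyocyte medium with an isolation reagent, and RNA was extracted with TRIzol, made into an Illumina small RNA library and sequenced on a HiSeq instrument. The authors deposited raw read counts per mature miRNA, which were the input here. The submitters' processing notes name Bowtie2 and the mouse builds mm9 and GRCm38, with no role or version. Trimming, mismatches and reads matching several miRNAs are not given in the sources used here, and a rat read that differs from its mouse entry could be lost. A normalized table and a table of fold changes and p-values were not used.

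Library totals of 102608 and 133155 reads set the precision. Counts were divided by these totals. Exact binomial and Fisher's exact tests, both two-sided and adjusted by the Benjamini-Hochberg method, were run over the whole table in Python 3.11.15 with scipy 1.17.1, and counts under 3 were raised to 3 in log2 ratios. The quasi-likelihood test needs replicates and could not be fitted. Scalings and an assumed spread were tried in edgeR 4.0.16 and DESeq2 1.42.0 (R 4.3.3), and duplexes were predicted in ViennaRNA 2.7.2. The exact tests were also run on simulated data, with planted differences larger than those of miR-126a. These runs do not show how the tests act on differences of its size. Named miRNAs were the arms, list members, neighbours in rank, the 3 nearest in log2 ratio to each arm, and the 3 hairpins nearest in arm balance and the 3 that differed most. The members, lists and rules were chosen with earlier results of these data known. The hairpin miR-28a was named after its values were seen.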

Additional observations from a re-analysis of the deposited data

How the results depend on the processing

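No paired analysis was possible because each condition has 1 library, and no replicate could be left out. The log2 ratio of miR-126a-5p ran from -0.62 to -0.49 over 14 alternatives and that of miR-126a-3p from 0.09 to 0.21, with the direction kept under each. The read filters, assumed spreads and added reads leave these ratios nearly as they are. Only the scalings could have turned the direction. The 6 other scalings lowered every log2 ratio by 0.03 to 0.12, which takes the 3p arm further from its threshold. With at least 10 reads in each library, or at least 50 over both, fewer miRNAs were tested and miR-126a-3p (log2 ratio 0.21) passed, with an adjusted p of 0.0490 and 0.0386 (exact binomial test), against 0.0386 to 1 over all alternatives.
An assumed spread allows for variation that counting error does not hold. By adjusted p, it ended the calls of miR-126a-5p and of the arm balance at each value tried. The p of the summed arms, 1 value, is not adjusted, and their call ended at 0.2 and 0.4 but not at 0.1. Without adjustment, miR-126a-5p and the arm balance would pass at 0.1 as well, so this does not set the summed arms apart. In edgeR's exact test, miR-126a-5p (log2 ratio -0.49) had adjusted p-values of 0.226, 0.980 and 1 at coefficients of variation of 0.1, 0.2 and 0.4, and an unadjusted p of 0.0168 at 0.1. By the same exact test, the summed arms (-0.45) had p = 0.0297, 0.277 and 0.592. For the arm balance, an assumed spread that is independent for each arm and library was chosen after the data were examined. The log2 odds ratio of -0.70 then had intervals of -1.29 to -0.11 at 0.1, -1.85 to 0.44 at 0.2 and -2.97 to 1.57 at 0.4, and did not pass over the 64 hairpins. Without this spread it passed with no minimum and with 10 or 50 reads as the minimum on each arm.
Both criteria, an adjusted p under 0.05 and a log2 size of 1 or more, were met by 16 of the 340 miRNAs, and by 12 to 16 under the other scalings, with 56.2% of them higher in HC-Exo with the totals and 41.7% with upper-quartile factors. They were met by 8 with at least 10 reads in each library, by 7 with at least 50 over both, and by 0 in edgeR's exact test with a coefficient of variation of 0.1, 0.2 or 0.4. At an unadjusted p under 0.05 with the same size these were 28, 20 and 1. Of hairpins with at least 50 reads on each arm, 9 of 24 passed the arm test.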
